A study of Mus musculus with 15 samples.

Results

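Pax2, Pax8, Hnf4a, Maf, Cebpa, Tfap2b and Esrrb are transcription factors that set up or maintain the identity of nephron cells, and their RNA was followed in mouse kidney 14 days after an injection of folic acid. They were chosen by symbol from the deposited table of normalised counts. All 7 genes were found among its 19602 genes and all 7 were among the 14651 genes tested (those reaching 10 normalised counts in 3 or more libraries). The study compared Tert+/+ mice (here WT) with generation 3 Tert-/- mice (here G3), which descend from successive generations without telomerase and so carry shortened telomeres. Mice of 6 to 8 weeks and of both labelled sexes received either folic acid at 125 mg/kg, which injures tubules and is followed by scarring, or 200 µl of its 0.3 M bicarbonate vehicle, by a single intraperitoneal injection. The groups were WT vehicle (n = 4), WT folic acid (n = 3), G3 vehicle (n = 4) and G3 folic acid (n = 4), each library from a kidney perfused with cold saline. The labels give neither the strain nor whether libraries share an animal, so p-values measure the spread between these libraries. The library kit reads the 3' ends of polyadenylated RNA, and values are counts divided by 1 size factor per library. Replicate numbers below follow accession order and only name a library.

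In the developing kidney Pax2 and Pax8 act together to turn mesenchyme into nephron epithelium. In the adult, Pax8 stays on in tubules and Pax2 mainly in collecting ducts and the inner medulla. Hnf4a drives genes of the mature proximal tubule, where Maf is expressed too. Tfap2b acts in the distal convoluted tubule and Esrrb is a nuclear receptor of the distal nephron, while Cebpa is a differentiation factor known best from fat, liver and myeloid cells. An injured tubule that loses its identity is described as gaining Pax2 and losing Hnf4a, and the question put to these libraries was whether Pax2 RNA was higher and Hnf4a RNA lower after folic acid.

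Each library had 5014684 to 6609307 reads on genes, with a median of 6091019, and single members had between 35 reads (Cebpa, lowest library) and 6759 reads (Maf, highest library). Kidney identity was plain in every library, with a sum over 22 proximal tubule genes of 43469 to 120108 normalised counts. RNA of the Y chromosome did not follow the labelled sex in 10 of 15 libraries. Summed over Ddx3y, Kdm5d, Eif2s3y and Uty, it was 273 to 867 in all 4 WT vehicle libraries and in G3 folic acid 1, 3 and 4, and 0.977 to 29.5 in the other 8. WT vehicle 2 and G3 folic acid 4 held Xist and Y-linked RNA together. Sex and group therefore cannot be told apart for folic acid in WT or for the genotypes after vehicle. For folic acid in G3 and for the genotypes after folic acid they are told apart only through G3 folic acid 2, the library of its group with almost no Y-linked RNA. Changes below are also given from a fit with the Y-linked share (this sum over that of the highest library) as a term, for the values that the text turns on. WT folic acid 1 stood apart: 23.0% of its reads fell on Gm42418, against 4.85 to 8.15% elsewhere. Injury did not mark all folic acid kidneys alike. Havcr1, which encodes the injury marker KIM-1, was 44.2 in WT folic acid 1 but 4.80 and 0.953 in WT folic acid 2 and 3, and it was 80.8, 58.2, 22.0 and 53.7 in G3 folic acid 1 to 4, against 0 to 9.02 in the 8 vehicle libraries.

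No member passed the test for folic acid in either genotype. In WT 0 of 7 passed in limma (adjusted p under 0.05), where 5.06% of the 14651 genes did, and 1 of 7 (Esrrb) had an unadjusted p under 0.05, as 23.1% of genes did. In G3 0 of 7 passed, where 0.273% of genes did, and again Esrrb alone had an unadjusted p under 0.05, as 13.8% of genes did. With the folic acid effect averaged over genotypes 0 of 7 passed, where 1.79% of genes did, with 1 of 7 (Maf) at an unadjusted p under 0.05, beside 18.7% of genes. edgeR and DESeq2 on the recovered reads gave 0 of 7 in these 3 comparisons too. Between genotypes after vehicle 1 of 7 passed (Cebpa, higher in G3), where 2.90% of genes did, and Cebpa alone had an unadjusted p under 0.05, as 17.9% of genes did. After folic acid 0 of 7 passed in limma, edgeR or DESeq2, where 2.30% did in limma, with 1 of 7 (Esrrb) at an unadjusted p under 0.05, beside 20.4% of genes. For the difference between the folic acid effects of the genotypes 0 of 7 passed in limma and in edgeR, where 3.82% of genes did in limma and 568 of 14651 in edgeR. In DESeq2 1 of 7 (Esrrb) passed for this difference, where 812 of 14651 genes did. Esrrb alone had an unadjusted p under 0.05 in limma for this difference, as 16.8% of genes did. Shares of 0 or 1 of 7 cannot be set apart from backgrounds of this size. The sample titles of WT vehicle 1 to 3 and of all WT folic acid libraries fall in 1 range of numbers, and within it the change after folic acid was log2 -0.18 for Pax2, -0.25 for Hnf4a, -0.22 for Maf, 0.36 for Cebpa and 0.56 for Esrrb. What these title numbers stand for is not given, and in G3 the range that holds all 4 folic acid libraries holds only 1 vehicle library (G3 vehicle 4).

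**Figure D1:**
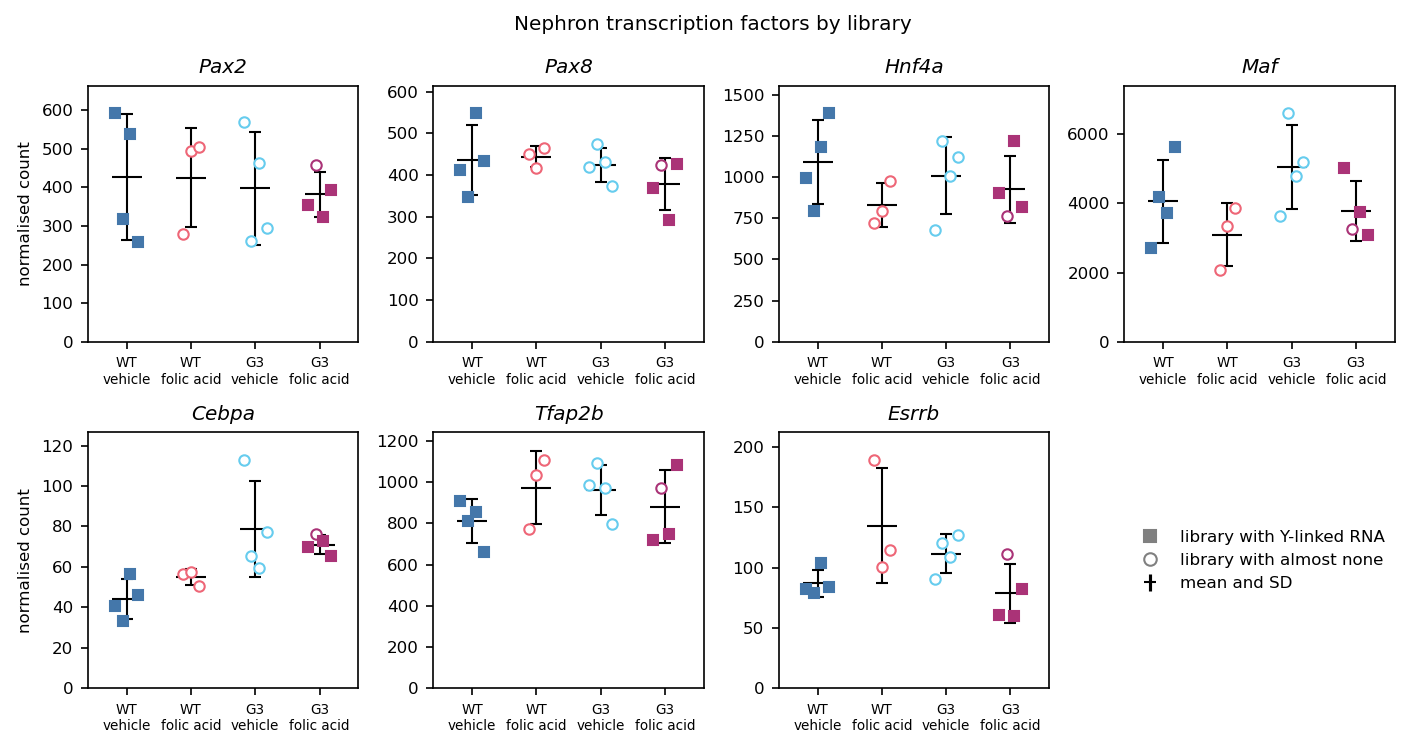
Normalised counts of the 7 genes in each library (points), with the mean and SD of each group. Filled squares are libraries with Y-linked RNA and open circles are libraries with almost none. For Pax2 the points spread as widely within a group as across groups, whereas for Cebpa all 8 G3 libraries lie above all 7 WT libraries. The share of all genes that separate in this way was not counted.

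Pax2 was not detectably higher after folic acid. The gene lies on chromosome 19 (44756045 to 44837871, plus strand, GRCm38, GENCODE M21). Its normalised count was 591, 318, 538 and 259.7 in WT vehicle 1 to 4, and 278, 493 and 505 in WT folic acid 1 to 3. In G3 it was 571, 262, 464 and 294 after vehicle, and 354, 457, 323 and 394 after folic acid. Each genotype's folic acid libraries lay inside the range of its vehicle libraries, and the group means were 427, 425, 398 and 382 in the order just given, with no neighbours in that order apart by more than their spread. The change was log2 0.03 in WT (SE 0.30, limma adjusted p = 0.970) and 0.0029 in G3 (SE 0.28, limma adjusted p = 0.998), on the log2(normalised count + 1) scale used throughout. Averaged over genotypes it was 0.02, with a 95% interval from -0.42 to 0.45, so a mean rise up to 0.45 on that scale is within the error. The sign of so small a change is not fixed: leaving out 1 library moved the WT value between -0.18 and 0.31.

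Pax2 varied widely inside the groups. Its coefficient of variation over the 15 libraries was 28.7%, above that of 88.5% of the 1524 genes of like level (median 16.3%), and its highest library had 2.28 times its lowest. Esrrb (31.5%), Cebpa (30.1%) and Maf (29.4%) had larger coefficients. The libraries with most Pax2 were WT vehicle 1, G3 vehicle 1 and WT vehicle 3, and these also held the most RNA of the urothelium, the lining of the renal pelvis. The sum of 6 urothelium genes (Upk1a, Upk1b, Upk2, Upk3a, Krt5 and Psca), all found in the table, was 538 and 461 in WT vehicle 1 and 3 and 706 in G3 vehicle 1. It was 39.8 and 27.0 in WT vehicle 2 and 4, and 16.6, 273 and 58.1 in G3 vehicle 2 to 4. After folic acid it was 144, 136 and 122 in WT and 19.97, 90.2, 15.0 and 148 in G3. Other libraries did not all keep this order. WT folic acid 1 had Pax2 at 278 beside an urothelium sum of 144. WT folic acid 2 and 3 had Pax2 at 493 and 505 beside 136 and 122, whereas G3 vehicle 3 had 464 beside 273. Collecting duct genes (12 of 12 in the table) summed to 4500.0 and 4630.1 in WT vehicle 1 and 3 against 3038 and 2600.4 in WT vehicle 2 and 4. In G3 vehicle 1 to 4 the sums were 4223, 3994, 5409 and 3776, so the largest was not in the library with most Pax2. After folic acid they were 2738, 3412 and 3613 in WT and 2617, 3719, 2793 and 3316 in G3. Which stretch of the kidney entered each RNA sample is not given, and the part of these tissues in the Pax2 values was not tested. As these are bulk samples, fewer cells of a type and less RNA per cell cannot be told apart for any gene here.

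**Figure D2:**
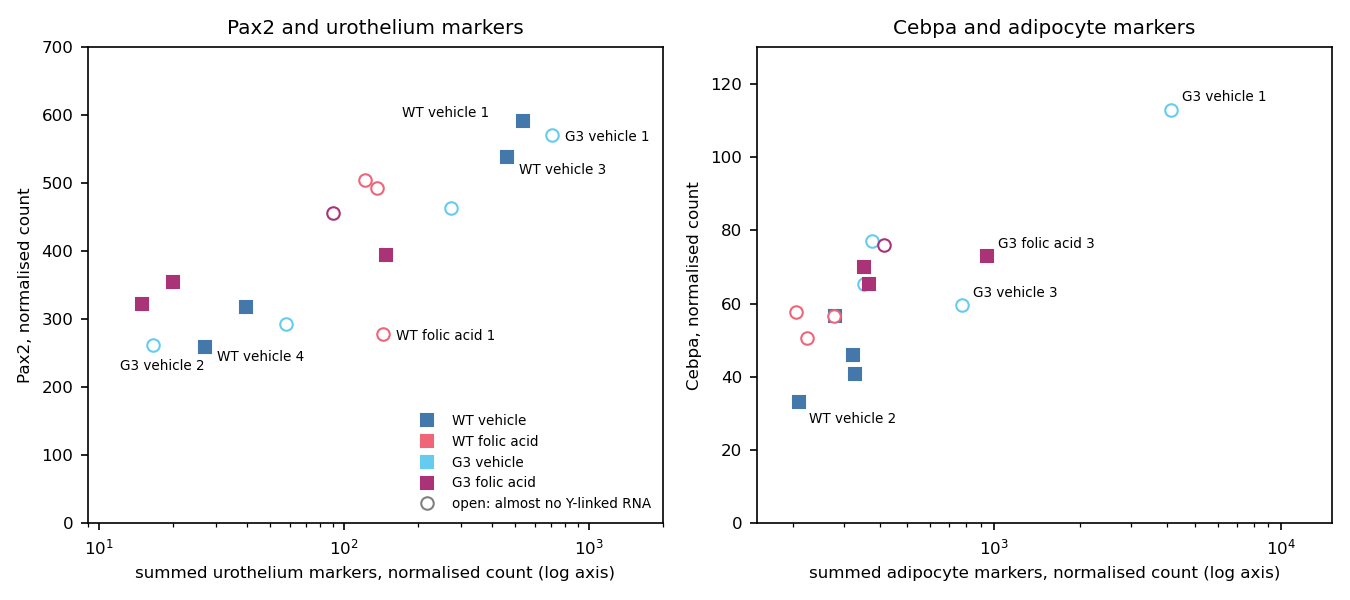
Left: Pax2 against the sum of 6 urothelium genes. Right: Cebpa against the sum of the adipocyte genes, each in normalised counts with the sum on a log axis, 1 point per library. The 3 libraries with most Pax2 have the 3 largest urothelium sums (461 to 706), and G3 vehicle 1 has both the most Cebpa (113) and the largest adipocyte sum (4146).

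Pax8, which works with Pax2 in early nephrons and stays on in adult tubules, had the smallest coefficient of variation of the 7 genes (14.1%), while Tfap2b had the smallest ratio of highest to lowest library (1.67 against 1.87 for Pax8). It lies on chromosome 2 (24420560 to 24475599, minus strand). Its counts were 413, 348, 548 and 435 in WT vehicle and 450.4, 417 and 465 in WT folic acid. In G3 they were 419, 474, 432 and 375 after vehicle and 369, 424, 293 and 426 after folic acid. The G3 folic acid group had the lowest mean (378, SD 62.5, n = 4), and the other 3 group means were 425 to 444, all with overlapping ranges. Folic acid was followed by a log2 change of 0.04 in WT (SE 0.16, limma adjusted p = 0.899) and -0.18 in G3 (SE 0.15, limma adjusted p = 0.650). Averaged over genotypes the change was -0.07, with a 95% interval from -0.29 to 0.16. Its coefficient of variation of 14.1% was below the median of 16.3% for 1470 genes of like level.

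Hnf4a, the nuclear receptor that drives proximal tubule maturation, was lower on average after folic acid in both genotypes, with overlapping ranges and no call. The gene lies on chromosome 2 (163506808 to 163572910, plus strand) and starts at either of a pair of promoters whose transcripts share most exons, so a library of 3' ends does not part them. Upstream sequences were found in the RefSeq promoter table (GRCm38.p6) for 6 of the 7 genes. Those of Hnf4a are printed here because the gene has a pair of starts that the libraries do not part, and that of Cebpa because it was the member that passed in limma. Each run is the 250 bases before the start, 5′ to 3′ on the gene's strand. Capitals mark matches, on either strand, to the motifs searched: CAAAGTCCA (HNF4), CCAAT (the CCAAT box), TATAAA (the TATA box) and GGGCGG (the GC box). No marked matches overlap.
Hnf4a, upstream start, chr2:163506607-163506856: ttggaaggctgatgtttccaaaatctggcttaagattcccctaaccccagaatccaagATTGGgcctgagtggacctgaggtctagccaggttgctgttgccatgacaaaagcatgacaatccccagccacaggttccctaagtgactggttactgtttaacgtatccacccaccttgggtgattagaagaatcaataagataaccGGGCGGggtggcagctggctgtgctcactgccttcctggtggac
Hnf4a, downstream start, chr2:163546905-163547154: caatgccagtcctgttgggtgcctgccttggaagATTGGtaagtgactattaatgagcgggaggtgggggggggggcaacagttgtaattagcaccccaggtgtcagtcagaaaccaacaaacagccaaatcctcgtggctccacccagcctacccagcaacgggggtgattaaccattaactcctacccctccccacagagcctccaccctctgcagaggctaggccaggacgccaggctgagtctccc
Cebpa, chr7:35119043-35119292: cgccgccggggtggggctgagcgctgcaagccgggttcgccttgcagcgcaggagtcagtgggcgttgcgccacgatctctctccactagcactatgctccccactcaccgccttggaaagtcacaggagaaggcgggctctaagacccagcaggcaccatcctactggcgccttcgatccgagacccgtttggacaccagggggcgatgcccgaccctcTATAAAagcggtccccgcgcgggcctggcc
Both Hnf4a starts hold a CCAAT match in reverse orientation, at position -192 in the upstream and -216 in the downstream sequence, as 33.9% of 32851 promoters of this length hold one on either strand. The upstream sequence also holds a GGGCGG match at position -44, a motif found in 32.7% of promoters. No printed promoter holds the HNF4 motif, which 0.384% of promoters hold. Cebpa has a TATAAA match at position -30, as 12.4% of promoters do, and a GC content of 66.4% against a median of 52.4%. These matches describe the letters only.

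Hnf4a RNA was 996, 791, 1182 and 1386 in WT vehicle and 719, 796 and 976 in WT folic acid. It was 680.4, 1218, 1007 and 1122 in G3 vehicle and 901, 763, 1217 and 818 in G3 folic acid. All 3 WT folic acid libraries were below the WT vehicle mean (1089, SD 254, n = 4), and 3 of 4 G3 folic acid libraries were below the G3 vehicle mean (1007, SD 234, n = 4), but the ranges overlapped in both genotypes. The group means ran from WT vehicle through G3 vehicle (1007) and G3 folic acid (925) to WT folic acid (830.3), and no neighbours differed beyond their spread. Folic acid was followed by log2 -0.37 in WT (SE 0.22, limma adjusted p = 0.316) and -0.11 in G3 (SE 0.20, limma adjusted p = 0.869). With the Y-linked share in the fit these became 0.20 and -0.45, so the direction in WT depends on that term. The average over genotypes, in which Y-linked RNA is more evenly placed, was -0.24 (SE 0.15, limma adjusted p = 0.395) with a 95% interval from -0.55 to 0.07, and -0.13 with the Y-linked share.

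Proximal tubule RNA was lowest in some of the libraries with little Hnf4a. The sum of the 22 proximal tubule genes was 43469 in WT folic acid 1 and 48900.1 in G3 folic acid 2, where Hnf4a was 719 and 763, the lowest of each folic acid group. G3 folic acid 3 had the largest sum after folic acid (99584) and the most Hnf4a (1217). The vehicle library with least Hnf4a, G3 vehicle 1, did not share this: its proximal tubule sum was 80652, and its urothelium and adipocyte sums were the largest of all. Slc34a1, the phosphate transporter of the proximal tubule brush border, was 5544 in WT folic acid 1 and 7314 in G3 folic acid 2, against 10289 to 21705 in the other 13 libraries. Tubular injury genes (15 of 15 in the table) summed to 10592 in WT folic acid 1 and to 11029, 10600.2 and 11607 in G3 folic acid 1, 2 and 4. In those libraries Hnf4a was 719, 901, 763 and 818, while it was 796, 976 and 1217 in WT folic acid 2 and 3 and G3 folic acid 3, where the injury sum was 6492, 6531 and 5701. The vehicle libraries had injury sums of 4255 to 6219, with Hnf4a from 680.4 to 1386. Among them G3 vehicle 1, with the least Hnf4a, had an injury sum of 5820. WT vehicle 2 had Hnf4a at 791, an injury sum of 5433 and a proximal tubule sum of 104366. G3 folic acid 3 held Y-linked RNA (sum 668), whereas WT folic acid 1 (29.5) and G3 folic acid 2 (15.0) held almost none. The proximal tubule sum includes Slc7a13 and Slc22a30, which are also on the list of genes higher in male kidneys. Acsm2, also in that sum, was 27155 in G3 folic acid 3, 4091 in G3 folic acid 2 and 1908 in WT folic acid 1. The parts of sex and of tissue differences in the Hnf4a values were not tested apart from the fit with the Y-linked share.

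Hnf4aos, an antisense gene that overlaps the upstream Hnf4a start, was 29.5 to 74.4, and the kit and counting kept strand, per the labels' protocols. Its change was log2 0.69 in WT (SE 0.27, limma adjusted p = 0.142) and 0.18 in G3 (limma adjusted p = 0.818).

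Taken as a ratio in each library, Pax2 over Hnf4a did not separate the groups. The log2 ratio averaged -1.41 in the 4 WT vehicle libraries (SD 0.71) and -1.004 in the 3 given folic acid (SD 0.34). In G3 it averaged -1.38 after vehicle (SD 0.88, n = 4) and -1.26 after folic acid (SD 0.50, n = 4). The highest single ratio belonged to a vehicle library, G3 vehicle 1 (-0.25), and so did the lowest, WT vehicle 4 (-2.42). Across the 15 libraries Pax2 and Hnf4a had Pearson's r = -0.34 (permutation p = 0.209, Benjamini-Hochberg adjusted 0.732 over 21 pairs of members) and Spearman's rho = -0.32 (permutation p = 0.246, adjusted 0.738). Without WT vehicle 4 and G3 vehicle 2, the libraries farthest from the Pax2 median, r was -0.02.

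**Figure D3:**
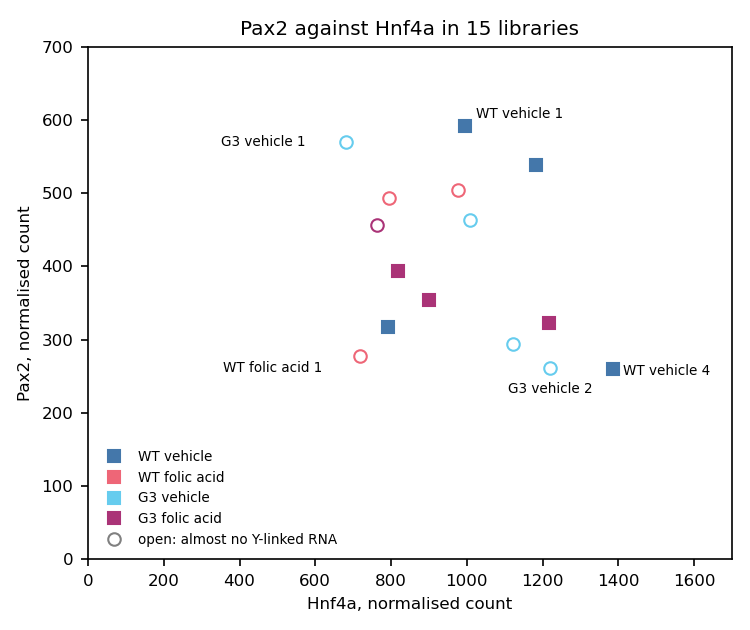
Pax2 against Hnf4a in normalised counts, 1 point per library, coloured by group. Libraries given folic acid would lie to the upper left if Pax2 were higher and Hnf4a lower, but the library farthest that way is G3 vehicle 1 (Pax2 571, Hnf4a 680.4).

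Maf, a bZIP factor of proximal tubules, lens and some immune cells, was lower on average after folic acid in both genotypes, with overlapping ranges and no call. It lies on chromosome 8 (115682942 to 115707794, minus strand). Its counts were 2718, 4184, 3714 and 5618 in WT vehicle and 2082, 3343 and 3864 in WT folic acid. In G3 they were 3641, 6603, 4794 and 5185 after vehicle and 5014, 3257, 3746 and 3098 after folic acid. All 7 folic acid libraries were below the mean vehicle count of their genotype (4058 in WT and 5056 in G3), but on the log2 scale 1 of 4 G3 folic acid libraries was above it, and the ranges overlapped. Group means ran from G3 vehicle through WT vehicle and G3 folic acid (3779) to WT folic acid (3096), with no neighbours apart beyond their spread. The change was log2 -0.39 in WT (SE 0.26, limma adjusted p = 0.384) and -0.41 in G3 (SE 0.24, limma adjusted p = 0.474). Without WT folic acid 1 the WT value was -0.13 (limma adjusted p = 0.857) and the average -0.27 (limma adjusted p = 0.506). The values were -0.17 in WT and -0.55 in G3 with the Y-linked share. Averaged over genotypes it was -0.40 (0.757-fold, SE 0.18, 95% interval -0.77 to -0.03), which did not pass (limma adjusted p = 0.227). The average was -0.36 with the Y-linked share in the fit (limma adjusted p = 0.375). Maf also moved with Hnf4a from library to library: Pearson's r was 0.61 (permutation p = 0.0149, adjusted 0.263 over 21 pairs), Spearman's rho 0.64 (permutation p = 0.0129, adjusted 0.169), and r was 0.59 without WT vehicle 4 and G3 vehicle 1. Neither value passed over the 21 pairs. Removing the group means left r at 0.61, so the likeness lay within the groups.

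Cebpa was the only member that passed a limma test, and its ranges separated the genotypes. The gene lies on chromosome 7 (35119293 to 35121928, plus strand) and its longest coding transcript is a single exon. It had 35 to 111 reads a library, so counting error is large for it. Its normalised counts were 40.7, 33.2, 56.6 and 46.0 in WT vehicle and 56.7, 57.6 and 50.5 in WT folic acid. They were 113, 65.5, 59.5 and 77.2 in G3 vehicle and 69.9, 76.1, 72.9 and 65.3 in G3 folic acid. Every G3 library was above every WT library, with G3 vehicle 3 the lowest of G3 and WT folic acid 2 the highest of WT. After vehicle Cebpa was 1.75-fold higher in G3 (log2 0.80, SE 0.20, 95% interval 0.38 to 1.22, limma adjusted p = 0.0363). edgeR and DESeq2 gave 0.83 and 0.84 (adjusted p = 0.0386 and 0.0120). After folic acid it was 1.29-fold higher in G3 (log2 0.37, SE 0.21, limma adjusted p = 0.353), which did not pass. Groups that do not overlap in either direction were found for 11.0% of genes after vehicle and for 17.3% after folic acid. The share of genes with every G3 library on 1 side of every WT library was not counted. Group means ran from G3 vehicle (78.8) through G3 folic acid (71.1) and WT folic acid (54.9) to WT vehicle (44.1), and among neighbours only G3 folic acid and WT folic acid had ranges that did not overlap.

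The call for Cebpa rested on few libraries and did not hold with a term for sex. It was lost when any 1 of WT vehicle 1, 2 or 4 or G3 vehicle 1, 2 or 4 was left out, with log2 0.62 to 0.93 over all 15 omissions and limma adjusted p from 0.0345 to 0.122. It was 0.68 with the labelled sex (limma adjusted p = 0.239, where 0.116% of genes passed) and 1.03 with the Y-linked share (limma adjusted p = 0.803, where 0.00683% of genes passed). G3 vehicle 1, the library with most Cebpa, also held by far the most fat RNA: the adipocyte genes (8 of 9 in the table, Lep not) summed to 4146 there, and to 355, 776 and 376 in G3 vehicle 2 to 4. The sums were 209 to 328 in WT vehicle, 204 to 278 in WT folic acid and 352 to 948 in G3 folic acid, so every G3 library exceeded every WT library in this sum as well. Adipoq, which encodes a hormone of fat cells, was 297, 22.5, 32.5 and 4.01 in G3 vehicle 1 to 4, and at most 5.99 in WT. G3 vehicle 4 had an Adipoq count of 4.01, inside the WT range, and Cebpa at 77.2, above all WT libraries. In G3 folic acid 1, 2 and 4 Adipoq was 4.54, 1.88 and 2.68, also inside the WT range. Cidec, another adipocyte gene, was 6.01 in G3 vehicle 4 and 7.26, 5.64 and 10.7 in G3 folic acid 1, 2 and 4, above the highest WT library (4.74). In the same libraries Retn was 8.02, 6.35, 4.70 and 10.7, and Pparg was 4.01, 5.45, 4.70 and 7.16. Both lay inside their WT ranges (highest 12.0 and 15.8). Cfd, Fabp4, Plin1 and Lipe were above the WT range in some of these libraries and inside it in others. Without G3 vehicle 1 the Cebpa difference was 0.62 (limma adjusted p = 0.0753), and without the 2 libraries that held RNA of both sexes it was 0.68 (limma adjusted p = 0.0838). The part of fat RNA in the remaining difference was not tested.

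Cebpa moved in opposite directions around the vehicle means of the genotypes, within its error. All 3 WT folic acid libraries were above the WT vehicle mean and all 4 G3 folic acid libraries below the G3 vehicle mean. The changes were log2 0.33 in WT (SE 0.21, limma adjusted p = 0.368) and -0.10 in G3 (SE 0.20, limma adjusted p = 0.881). Their difference was -0.44 (SE 0.29, limma adjusted p = 0.486), and without G3 vehicle 1 the G3 change was 0.08. With the Y-linked share the 3 values were 0.56, -0.24 and -0.80, and the difference between genotypes after folic acid was 0.24.

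Tfap2b, a factor of the distal nephron whose human gene underlies a syndrome with heart and hand defects, differed little between groups. It lies on chromosome 1 (19208914 to 19238576, plus strand). Its counts were 909, 811, 856 and 662 in WT vehicle and 771, 1037 and 1108 in WT folic acid. In G3 they were 984, 1091, 969 and 799 after vehicle and 718, 973, 749 and 1082 after folic acid. WT folic acid had the highest mean (972, SD 177, n = 3), then G3 vehicle (961), G3 folic acid (881) and WT vehicle (809.7, SD 106, n = 4), and all ranges overlapped. The change after folic acid was log2 0.26 in WT (SE 0.17, limma adjusted p = 0.386) and -0.14 in G3 (SE 0.16, limma adjusted p = 0.772). Both signs turned with the Y-linked share in the fit, to -0.06 and 0.05.

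Esrrb, an orphan nuclear receptor of the distal nephron, showed the largest difference between the genotypes' responses among the members. The gene lies on chromosome 12 (86361117 to 86521628, plus strand) and had 60 to 167 reads a library. Its counts were 82.6, 78.7, 104 and 83.9 in WT vehicle and 189, 101 and 114 in WT folic acid. In G3 they were 90.5, 120.2, 109 and 127 after vehicle and 60.8, 112, 59.9 and 82.3 after folic acid. WT folic acid was higher than its vehicle group except that its lowest library (101) fell below WT vehicle 3 (104), and G3 folic acid was lower than its vehicle group except for G3 folic acid 2. The changes were log2 0.58 in WT (1.49-fold, SE 0.23, limma adjusted p = 0.150) and -0.54 in G3 (0.689-fold, SE 0.22, limma adjusted p = 0.274). Their difference was -1.11 (SE 0.32, 95% interval -1.79 to -0.44), which missed the threshold in limma (adjusted p = 0.0632) and edgeR (adjusted p = 0.0629) and passed in DESeq2 (adjusted p = 0.0293). After folic acid Esrrb was lower in G3 than in WT by log2 -0.76 (SE 0.23, limma adjusted p = 0.0913). Leaving out G3 folic acid 2 brought both values past the threshold, at -1.30 (limma adjusted p = 0.0146) and -0.94 (limma adjusted p = 0.0294). Leaving out WT folic acid 1, the library with most Esrrb, took them to -0.84 (limma adjusted p = 0.132) and -0.49 (limma adjusted p = 0.214), and the WT change to 0.31 (limma adjusted p = 0.539). Without the 2 libraries that held RNA of both sexes the difference was -1.10 (limma adjusted p = 0.0857). Group means ran from WT folic acid (135) through G3 vehicle (112) and WT vehicle (87.2) to G3 folic acid (78.7), and each neighbouring pair overlapped.

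Esrrb was lower in most libraries with Y-linked RNA, with overlapping ranges. The 7 libraries with Y-linked RNA had 59.9 to 104 (median 82.3) and the 8 with almost none had 90.5 to 189 (median 113). G3 folic acid 2, the exception in its group, was the G3 folic acid library without Y-linked RNA. With the Y-linked share in the fit the difference between the folic acid effects was -0.46 (limma adjusted p = 0.9997), the changes were 0.17 in WT and -0.29 in G3, and the genotypes differed after folic acid by -0.53. The Y-linked term itself was -0.51 for Esrrb (SE 0.34, limma adjusted p = 0.639), smaller in size than that of Hnf4a (0.72). Distal nephron genes (19 of 19 in the table) moved alongside: their sum was 27748 to 31618 in WT vehicle, 41248 to 45779 in WT folic acid, 30728 to 33053 in G3 vehicle and 22909.5 to 32936 in G3 folic acid. The parts of sex and of distal nephron mass in the Esrrb values were not tested apart from that fit.

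**Figure D4:**
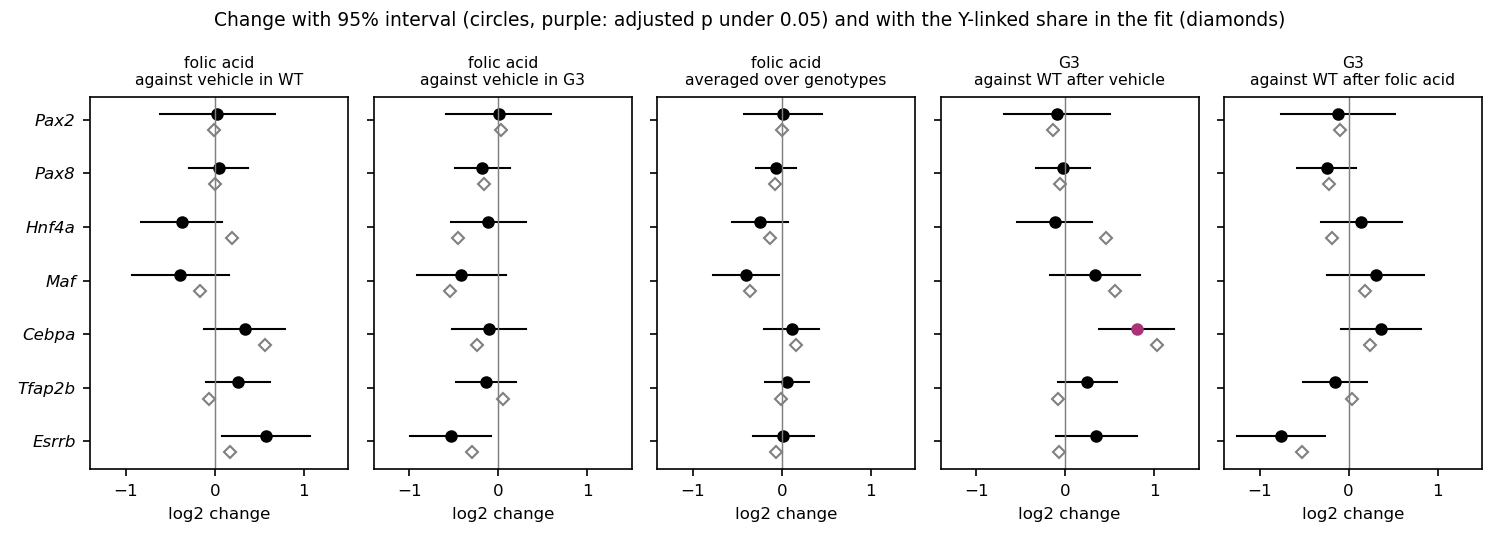
Log2 change of each gene in 5 comparisons, with its 95% interval (circles and bars) and the same change with the Y-linked share in the fit (diamonds). The purple circle is the only call, Cebpa in G3 against WT after vehicle (0.80), and the diamonds of Hnf4a lie on the other side of 0 from its circles in WT after folic acid (0.20 against -0.37).

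For each member the 3 genes most like it over the 15 libraries were taken from 8522 genes with a mean of at least 50, by Pearson's r of the log2 values, as a description without a test. For Pax2 these were the actin-binding gene Ppp1r9a (r = 0.88), the dynamin Dnm3 (0.87) and the nonmuscle myosin Myh10 (0.83), and all 3 held within groups (0.89 to 0.92). Hnf4a had the closest partners, Tbc1d13 (0.92), the dolichol synthesis gene Nus1 (0.92) and the triose kinase gene Tkfc (0.92). Maf was followed by the adrenergic receptor Adra2b (0.91), Dennd5b (0.91) and the R-spondin receptor Lgr4 (0.89), each lowest in WT folic acid 1 and highest in G3 vehicle 2 as Maf was. Esrrb was followed by the organic anion transporter Slc22a13 (0.90), Serpina1f (0.88) and Abi2 (0.88), each highest in WT folic acid 1. For Cebpa the nearest were Ifi27 (0.84), the fatty acid carrier Fabp4 (0.81) and the amino acid transporter Slc1a5 (0.78), each highest in G3 vehicle 1. Fabp4 belongs to the adipocyte list. Within groups Ifi27 fell to 0.51 and Slc1a5 to 0.56. Tfap2b was most like the co-chaperone Dnajc7 (0.89), the malic enzyme Me3 (0.83) and the stress factor Nfe2l2 (0.82), and Pax8 was most like Arrdc1 (0.82), the adhesion molecule L1cam (0.76) and the calcium channel subunit Cacnb4 (0.75). All these likenesses share the libraries' tissue makeup and depth.

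Other transcription factors of the kidney were read from fixed lists to set the 7 genes in context. Of 22 further tubule factors, 1 was lower after folic acid in WT (Hnf4g) and 0 passed in G3, where 5.06% and 0.273% of all genes did. The medians were log2 -0.17 and -0.11 beside 0.01 and -0.01 over all genes tested, and in WT the median was 0.11 without WT folic acid 1 and -0.02 with the Y-linked share. Hnf4g, the paralog of Hnf4a, was 31.3 to 45.2 in WT vehicle and 11.3, 26.9 and 11.4 in WT folic acid (log2 -1.23, SE 0.34, limma adjusted p = 0.0448), and 12.2 to 31.1 in G3 vehicle against 22.4 to 30.9 in G3 folic acid (log2 0.16). The WT groups of Hnf4g did not overlap, as was so for 19.9% of genes. Of 9 collecting duct factors 0 passed in either genotype (medians 0.18 and -0.37). Among 7 tested progenitor factors 1 rose in WT and 0 in G3. Hoxa11, a patterning gene of the metanephric mesenchyme, was 19.98 to 30.3 in WT vehicle and 105, 45.1 and 47.7 in WT folic acid (log2 1.36, SE 0.34, limma adjusted p = 0.0312). Averaged over genotypes Hoxa11 rose by 1.04 and Hoxd11 by 1.27 (both limma adjusted p = 0.0387), with WT folic acid 1 the highest library for both. Without that library neither passed: Hoxa11 was 0.97 in WT (limma adjusted p = 0.150) and 0.85 on average (0.101), and Hoxd11 was 1.01 (0.0892). With 1 library left out at a time the call held in 5 of 15 omissions for Hnf4g, in 10 for Hoxa11 in WT, and in 6 for each of Hoxa11 and Hoxd11 on average. None of these calls held with the Y-linked share, where 0 genes of these lists passed in WT and 0 genes of the whole table on average.

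Of 14 injury factors tested, 1 passed after folic acid in WT (Zeb2, higher) and 0 in G3, where 5.06% and 0.273% of all genes did. The change was above 0 for 12 in WT and 11 in G3, beside 7516 and 7084 of 14651 genes, with medians of log2 0.59 and 0.51. With the Y-linked share the medians were 0.21 and 0.69. Zeb2, a repressor of epithelial genes, was 349 to 526 in WT vehicle and 1141, 651 and 532 in WT folic acid (log2 0.83, SE 0.22, limma adjusted p = 0.0417). In G3 it was 308 to 471 after vehicle and 671 to 878 after folic acid (log2 0.85, SE 0.20, limma adjusted p = 0.0737), groups that did not overlap, as was so for 7.75% of genes. Averaged over genotypes Zeb2 rose by 0.84 (limma adjusted p = 0.0308). Without WT folic acid 1 the median of the injury factors in WT was 0.34, and Zeb2 no longer passed there (0.51, limma adjusted p = 0.187). The Zeb2 call held in 7 of 15 single omissions in WT and in 8 on average, and in neither comparison with the Y-linked share. Sox9, switched on in repairing tubules, was 14.7 to 29.4 in WT vehicle, 59.0, 25.0 and 26.7 in WT folic acid, 31.3 to 45.1 in G3 vehicle and 30.0 to 103 in G3 folic acid (log2 0.58 and 0.63, limma adjusted p = 0.362 and 0.448). Havcr1 itself rose by 2.91 averaged over genotypes (SE 0.66, limma adjusted p = 0.0402), and by 2.29 without WT folic acid 1 (limma adjusted p = 0.105), and passed in 5 of 15 single omissions.

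After vehicle 1 of 22 tubule factors and 1 of 7 progenitor factors passed between genotypes, beside 2.90% of all genes. Irx3, a patterning factor of the intermediate nephron, was lower in G3 (log2 -0.57, SE 0.14, limma adjusted p = 0.0349), at 321 to 384 against 444 to 595. Sall1, a zinc finger gene required for nephron progenitors, was higher in G3 (log2 1.08, SE 0.22, limma adjusted p = 0.0145), at 115 to 213 against 66.2 to 105. With the Y-linked share the values were -0.26 for Irx3 and 0.37 for Sall1, and neither passed (limma adjusted p = 0.851 and 0.844). The folic acid effects differed for Sall1 (-1.36), for Pou3f3, a loop and distal tubule factor (-0.98), and for Sim1 (-0.83), with limma adjusted p = 0.0259, 0.0262 and 0.0398. That is 1 of 7 progenitor factors and 2 of 22 tubule factors, where 3.82% of all genes passed. Like Esrrb, these 3 genes were higher in WT and lower in G3 after folic acid, and with the Y-linked share in the fit their differences were -0.24, -0.16 and -0.35 and did not pass. Pou3f3 was 430 and 434 in G3 folic acid 1 and 3, which held the most Y-linked RNA of their group, and 736 in G3 folic acid 2, which held almost none. With 1 library left out at a time, the call held in 8 of 15 omissions for Irx3, in 12 for Sall1 after vehicle and 6 for its difference, in 9 for Pou3f3 and in 4 for Sim1.

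**Figure D5:**
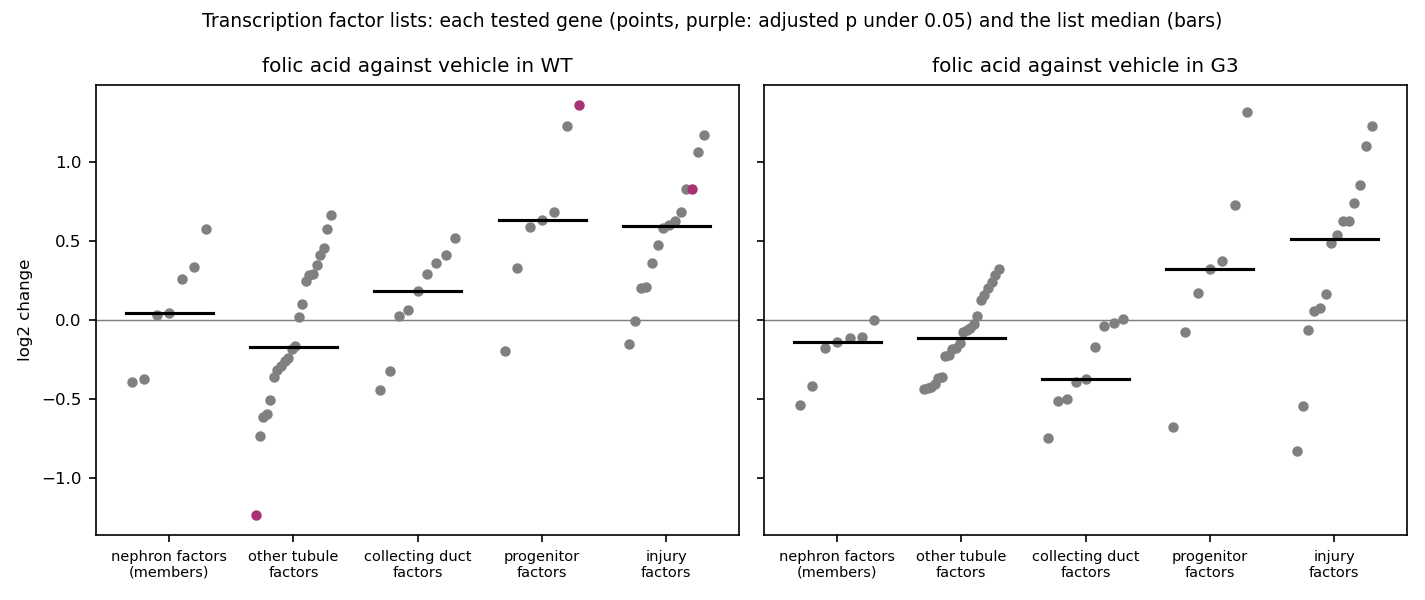
Log2 change after folic acid of every tested gene in 5 transcription factor lists (points) with the list median (bar), in WT (left) and G3 (right). Purple points passed in limma: Hnf4g, Hoxa11 and Zeb2 in WT, and no gene of these lists in G3. The 7 members centre on 0.04 in WT and -0.14 in G3, against 0.59 and 0.51 for the injury factors, and without WT folic acid 1 the WT medians are 0.31 and 0.34.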

How the data were processed

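RNA 3' ends were sequenced from 15 mouse kidneys in 4 groups. The deposited signal values are gene counts that the authors had divided by 1 size factor per library, as the values show: in every library 100.0% of them are whole multiples, within 0.001, of a step of 0.895 to 1.13, so whole reads were recovered. FastQC 0.11.7, TopHat2 2.0.10, Bowtie 1.0.0, SAMtools 0.1.19, HTSeq 0.6.1 and DESeq2 are named, per the submitters' processing notes. All 15 columns were mapped to samples by name.

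Values were analysed as log2(normalised count + 1) with limma 3.58.1 (trended variance) in R 4.3.3, over 14651 genes with at least 10 normalised counts in at least 3 libraries. The fit held the 4 groups and no sex term, because Xist and Y-linked RNA went against the labelled sex in 10 of 15 libraries. A total of 6 comparisons were made: folic acid in WT, in G3 and averaged over both, the genotypes against each other within each treatment, and the difference between the folic acid effects. P-values were Benjamini-Hochberg adjusted over all genes, with a threshold of 0.05. The limma script was tested on simulated data.

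Alternatives were edgeR 4.0.16 and DESeq2 1.42.0 on the recovered reads, TMM scaling, pseudocounts of 0.5 and 5, no filter, a filter of 20 in 8 libraries, terms for labelled sex, Y-linked share or title number range, leaving out each library, and leaving out the 2 libraries with RNA of both sexes. A pair of alternatives was chosen after seeing the data: the Y-linked share without those 2 libraries, and leaving out G3 vehicle 1 and WT folic acid 1 together.

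The 7 genes and all gene lists were chosen with earlier results of these data known. Genes named besides the 7 are their 3 nearest by correlation, a fixed panel, and genes of the lists that passed (at most 3 of smallest p per list and comparison). As a departure from that rule, the lists of other cells and of sex-dependent genes are given only by counts or sums. The adipocyte genes named beside Cebpa are an exception. Tubule marker genes are given only for the comparisons described. Some genes of the lists and panel are not reported here. Intervals printed are 95% intervals from limma. The closest replicate pairs, G3 vehicle 3 and 4 and WT folic acid 2 and 3, had mean chi-square values of 2.88 and 3.01 per gene. The other pairs within groups had 7.25 to 72.6. Values above sampling noise do not show whether a pair comes from different animals. Each library was counted as its own sample, with that left unknown. Gene positions are from GENCODE M21 (GRCm38) and promoter sequences from RefSeq.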

Additional observations from a re-analysis of the deposited data

Results flagged for a closer look

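In Cebpa and in Esrrb the fitted folic acid effect was above 0 in WT and below 0 in G3, and neither difference passed in limma. The same signs were fitted for Tfap2b (log2 0.26 and -0.14) and Pax8 (0.04 and -0.18), whose differences did not pass either. All 3 WT folic acid libraries had more Cebpa than the WT vehicle mean and all 4 G3 folic acid libraries had less than the G3 vehicle mean, with a difference between the effects of log2 -0.44 (SE 0.29, limma adjusted p = 0.486). Without G3 vehicle 1 the Cebpa change in G3 was 0.08, on the same side of 0 as in WT. For Esrrb the difference was log2 -1.11 (SE 0.32, limma adjusted p = 0.0632), and -0.46 with the Y-linked share (limma adjusted p = 0.9997). All 3 WT folic acid libraries had more Esrrb than the WT vehicle mean, while G3 folic acid 2 was level with the G3 vehicle mean (both 112) and above it on the log2 scale. Over the 21 groups of 4 libraries no library met Dixon's criterion for any member. The WT folic acid groups of 3 were not examined.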

How the results depend on the processing

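With 3 or 4 libraries a group, and 2 of 15 holding RNA of both sexes, small changes of the members keep neither sign nor call. Cebpa, the 1 member called in G3 against WT after vehicle, gave 0 members called with labelled sex, with the Y-linked share, with the title number range, without the 2 libraries with RNA of both sexes (also with the Y-linked share), and without G3 vehicle 1 and WT folic acid 1 together. For the difference between the folic acid effects 0 members were called in limma and 1 in DESeq2. Leaving out 1 library gave 0 to 1 called members in G3 against WT after vehicle, after folic acid and for the difference, and 0 to 0 elsewhere. No paired analysis was possible because the replicate numbers come from accession order and pair no libraries.

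Genes called over the whole table moved by far more. For folic acid in WT there were 741 in limma, 370 with labelled sex, 1 with the Y-linked share, 2 with the title number range, 1259 in DESeq2, 1241 without the libraries with RNA of both sexes (2 when the Y-linked share was added), 135 without G3 vehicle 1 and WT folic acid 1, and 99 to 1309 with 1 library left out. For folic acid in G3 these were 40, 12, 9, 0, 392, 11, 3, 329 and 3 to 364, with 19 under the stricter filter. For the average they were 262, 425, 0, 0, 857, 10, 5, 33 and 0 to 691, with 451 in edgeR. For G3 against WT after vehicle they were 425, 17, 1, 1, 789, 613, 1, 768 and 83 to 686. After folic acid they were 337, 268, 17, 0, 762, 567, 31, 914 and 27 to 615. For the difference they were 560, 103, 2, 3, 812, 959, 0, 501 and 260.0 to 928.

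Signs that turned, by setting, were as follows on the log2 scale. Pax2 after folic acid in WT was -0.00075 in edgeR, -0.0028 in DESeq2, -0.092 with labelled sex, -0.015 with the Y-linked share, -0.18 with the title number range and -0.085 without the libraries with RNA of both sexes. In G3 Pax2 was -0.057 in edgeR, -0.058 in DESeq2 and -0.016 without those libraries, and its average was -0.029, -0.030 and -0.050 there and -0.022 with labelled sex. Adding the Y-linked share gave 0.20 for Hnf4a in WT and -0.065 in WT and 0.052 in G3 for Tfap2b. With the title number range the Pax8 average was 0.023, and in G3 Tfap2b was 0.12, Hnf4aos -0.093 and Hnf4g -0.26. Without G3 vehicle 1 and WT folic acid 1, Cebpa in G3 was 0.082, Hnf4aos -0.049 and Hnf4g -0.13, and without the libraries with RNA of both sexes Pax8 in WT was -0.057. With the Y-linked share added and those libraries left out, the WT values were -0.69 for Pax2, 0.025 for Hnf4a, -0.53 for Pax8, -0.28 for Tfap2b, 0.16 for Maf, -0.56 for Esrrb, 0.28 for Slc22a30, 2.31 for Slc7a13 and 0.50 for Acsm2. The G3 values were then 0.016 for Pax8, 0.053 for Tfap2b, 0.010 for Cebpa, 0.022 for Esrrb and -0.30 for Hnf4aos, the Pax2 average was -0.19, and the differences were 0.58 for Esrrb, 0.14 for Sall1, 0.42 for Pou3f3 and 0.087 for Sim1. With 1 library left out Pax2 ran from -0.18 to 0.31 in WT, -0.17 to 0.20 in G3 and -0.089 to 0.16 on average. Pax8 in WT ran from -0.057 to 0.16, and in G3 Cebpa ran from -0.22 to 0.082, Hnf4aos from -0.049 to 0.34 and Hnf4g from -0.13 to 0.29. Changes of members that the report does not print turned as well: with the Y-linked share Hnf4a went from -0.12 to 0.46 between genotypes after vehicle, from 0.14 to -0.18 after folic acid and from 0.26 to -0.65 for the difference. Likewise Tfap2b went from 0.25 to -0.08 after vehicle, from -0.15 to 0.04 after folic acid and from -0.39 to 0.12 for the difference, and Esrrb from 0.35 to -0.06 after vehicle. Labelled sex took the Maf difference from -0.03 to 0.28. The cause of these changes was not tested.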

Other observations

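Several genes of the injured tubule rose after folic acid. Averaged over genotypes 4 of 15 tubular injury genes passed in limma, all higher, where 1.79% of genes did: Havcr1, described above, and 3 more. Spp1, which encodes the secreted matrix protein osteopontin, was 327 to 624 in WT vehicle and 1009 to 1906 in WT folic acid, and 774 to 1306 in G3 vehicle and 982 to 2403 in G3 folic acid (average log2 1.17, limma adjusted p = 0.0308). The G3 vehicle libraries were all above the WT vehicle libraries in Spp1 (log2 1.25, limma adjusted p = 0.0267). Clu, a secreted chaperone gene, rose by 0.90 on average (limma adjusted p = 0.0308) and by 1.13 in G3 (limma adjusted p = 0.0410). Vcam1, an adhesion molecule gene, rose by 1.5 on average (limma adjusted p = 0.0331). Adding the Y-linked share gave averages of 1.02, 0.82 and 1.35 (limma adjusted p = 0.0763 for each), and leaving out 1 library at a time the call held in 7 of 15 omissions for Spp1, 7 for Clu and 5 for Vcam1. Macrophage genes passed on average in 7 of 14 and fibroblast genes in 3 of 10, all higher, beside 0 of 22 proximal tubule genes. None of these macrophage and fibroblast genes passed with the Y-linked share, and no gene of the whole table passed for the average without WT vehicle 1, G3 vehicle 2 or G3 folic acid 1, 2 or 4.

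Between genotypes after folic acid 1 of 22 proximal tubule genes, 2 of 19 distal nephron genes and 1 of 12 collecting duct genes passed in limma, all lower in G3, where 2.30% of genes did. Lrp2, which encodes the endocytic receptor megalin of the proximal tubule, was 8702 to 12006 in WT and 4109 to 5815 in G3 (log2 -1.07, SE 0.21, limma adjusted p = 0.0205). In the same comparison Egf, made in the distal nephron, was 3573 to 5485 in WT and 1830.1 to 2789 in G3 (log2 -1.06, limma adjusted p = 0.0105). Slc12a1, the salt transporter of the thick limb, was lower in G3 by log2 -0.94 (limma adjusted p = 0.0273), and Slc4a1, an anion exchanger of acid-secreting duct cells, by -1.01 (limma adjusted p = 0.0332). The 4 values were -0.77, -0.90, -0.71 and -0.65 with the Y-linked share (limma adjusted p from 0.147 to 0.374), and the calls held in 12, 13, 11 and 11 of 15 single omissions, each lost without WT folic acid 2 or 3. In WT, folic acid was followed by more Umod, the gene of the thick limb protein uromodulin (log2 0.85, limma adjusted p = 0.0330), and more of the duct proton pump gene Atp6v1b1 (0.60, limma adjusted p = 0.0312). Egf rose in WT too (0.63, limma adjusted p = 0.0485). These 3 changes were 0.74, 0.37 and 0.35 with the Y-linked share, and none passed. The calls held in 10 of 15 single omissions for Umod, 10 for Atp6v1b1 and 5 for Egf. The genes that fell in WT in the proximal tubule list were 4 of 22, where 5.06% of all genes passed in either direction. The amino acid transporter gene Slc7a13 (log2 -6.25, limma adjusted p = 0.0148) and the anion transporter gene Slc22a30 (-3.69, limma adjusted p = 0.00811) are also on the list of genes higher in male kidneys. Acsm2, an acyl-CoA synthetase gene, fell too (log2 -2.39, limma adjusted p = 0.0167). Adding the Y-linked share gave -1.39, -0.96 and -0.70, and none passed, while the calls held in 14, 15 and 12 of 15 single omissions. Pzp, a protease inhibitor gene, was 193 to 444 in WT vehicle, 4.54 to 10.6 in WT folic acid, 3.01 to 7.82 in G3 vehicle and 43.2 to 301 in G3 folic acid, and its changes of log2 -5.49 and 4.18 still passed with the Y-linked share (-3.56 and 3.04, limma adjusted p = 0.0347 and 0.00208), but not when the 2 libraries with RNA of both sexes were left out as well (-2.92 and 2.81).

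The following genes of the fixed panel passed in none of the 6 comparisons in limma. Over the 15 libraries Lhx1, a nephron patterning factor, was 170 to 557, Gata3, a collecting duct factor, was 121 to 365, and Wt1, a podocyte factor, was 24.0 to 74.9. Among paralogs of the members Cebpb was 16.0 to 48.1, Cebpd 18.0 to 106, Tfap2a 33.9 to 72.9, Esrra 45.4 to 131 and Esrrg 154 to 249. Cebpd came nearest to a call, higher in G3 after vehicle by log2 1.37 (limma adjusted p = 0.0591, and 0.12 with the Y-linked share). Kctd1, a distal nephron gene, was 54.3 to 123, and Slc12a3, the distal salt transporter, was 781 to 7014. The injury marker Lcn2 was 1.90 to 26.1 in the vehicle libraries and 11.5 to 358 after folic acid. The macrophage receptor gene Csf1r was 497 to 1300.1.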
